A study of Mus musculus with 8 samples.

Results

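The mitochondrial respiratory chain subunit genes were defined by symbol. A gene was a member if its symbol started with Ndufa, Ndufb, Ndufc, Ndufs, Ndufv, Uqcr, Cox4, Cox5, Cox6, Cox7, Cox8 or Atp5, or was Cyc1, Sdha, Sdhb, Sdhc or Sdhd, and Ndufaf genes were left out. Of 18193 genes with a probe set of their own on the array, 83 were members. Each was represented by its probe set (a group of probes read as a single value) with the highest mean intensity over the 8 arrays, a choice that uses brightness and no contrast. Together the members had 170 probe sets. By complex, 34 members encode subunits of complex I, 4 of complex II, 9 of complex III, 19 of complex IV or proteins bound to it, and 17 of complex V.

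The study compared mouse FAK mutants, which carry an unspecified mutation of focal adhesion kinase, with controls on 8 Affymetrix arrays. The mutant p75-sorted array and the control p75-sorted array each held cranial neural crest cells sorted on the neurotrophin receptor p75 from the head and thorax of 3 pooled E11.5 embryos, in mid-gestation. The other 6 arrays came from head or neck material named OFT, LM and UM, with 1 mutant and 1 control array each. What these names stand for is not stated, and the embryonic day of these arrays is given only for the series. Neither the FAK allele, a Cre driver, the controls' alleles nor the number of embryos behind an OFT, LM or UM array is given in the sources used here, and the FAK gene itself was not analysed here.

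The respiratory chain passes electrons from NADH through complex I, or from succinate through complex II, by way of ubiquinone to complex III, then by cytochrome c to complex IV, which reduces oxygen. Complexes I, III and IV pump protons across the inner mitochondrial membrane, and complex V, the ATP synthase, lets them back to make ATP. Nearly all these subunits are used in every tissue, but some subunits of complex IV have paralogs restricted to a few tissues: Cox6a2, Cox7a1 and Cox8b replace Cox6a1, Cox7a2 and Cox8a in heart and skeletal muscle, and Cox6b2 and Cox8c are best known from testis. The factors NRF1, GABPA (an ETS factor) and YY1 are known activators of nuclear genes for respiratory chain subunits.

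The promoter sequences were taken from RefSeq, build GRCm38.p6, for the window running from 250 bases before to 50 after the annotated start, in which 67 members had an entry. Letters for NRF1 (GCATGCGC), ETS factors (CCGGAAGT) and YY1 (AAGATGGC) were searched on both strands. A gene symbol counted if any of its windows held the letters. NRF1 letters were in 9 members' windows, or 13.4%, against 3.05% of all 27025 symbols with a window. YY1 letters were in 9, or 13.4% against 3.19%, and ETS letters in 5, or 7.46% against 4.31%. At least 1 of the 3 was in 22 members' windows, or 32.8%, against 9.91% of all symbols with a window. The windows with NRF1 letters belonged to Ndufa6, Ndufa8, Sdhb, Uqcrc1, Uqcr11, Cox6a1, Atp5g2, Atp5k and Atp5l. CAGCTG, an E-box of muscle regulators chosen after the data were seen, was in 6 members' windows, or 8.96%, against 18.3% of all symbols. Letters for MEF2 and for the CArG box, other motifs of muscle genes, were also searched. Each was in 0 members' windows, against 0.636% of all symbols for MEF2 and 1.81% for the CArG box. The 250 bases before the start are shown for the muscle isoform gene Cox7a1, for Cox7a2, its broadly used paralog, and for Cox6a1, the broadly used paralog of Cox6a2, because the comparison of origins turns on these isoforms. Capitals mark NRF1 letters, whose matches on the 2 strands overlap in Cox6a1. The coordinates are chr7:30183921-30184170 on the plus strand for Cox7a1, chr9:79759854-79760103 on the minus strand for Cox7a2 and chr5:115348959-115349208 on the minus strand for Cox6a1, each printed 5′ to 3′ along the gene.
Cox7a1: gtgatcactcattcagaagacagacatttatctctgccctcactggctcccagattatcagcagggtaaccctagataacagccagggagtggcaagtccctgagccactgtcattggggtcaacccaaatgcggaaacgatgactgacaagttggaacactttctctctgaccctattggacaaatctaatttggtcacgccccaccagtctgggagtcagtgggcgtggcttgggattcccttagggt
Cox7a2: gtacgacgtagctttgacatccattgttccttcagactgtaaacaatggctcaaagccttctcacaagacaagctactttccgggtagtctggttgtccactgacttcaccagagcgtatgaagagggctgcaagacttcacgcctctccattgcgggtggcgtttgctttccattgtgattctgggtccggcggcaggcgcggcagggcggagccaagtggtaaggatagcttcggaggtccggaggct
Cox6a1: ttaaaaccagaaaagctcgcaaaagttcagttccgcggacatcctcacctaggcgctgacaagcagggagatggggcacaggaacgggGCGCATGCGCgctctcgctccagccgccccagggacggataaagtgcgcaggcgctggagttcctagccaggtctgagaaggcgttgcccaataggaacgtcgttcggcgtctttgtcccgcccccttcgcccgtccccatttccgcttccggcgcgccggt
None of the searched letters was in the windows printed for Cox7a1 and Cox7a2. G or C made up 51.2% of the printed bases in Cox7a1, 54.8% in Cox7a2 and 62.8% in Cox6a1. A match or its absence describes these letters and not binding.

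The deposited values were intensities on a linear scale, and all comparisons used log2(intensity + 32), which understates changes of dim genes. Testing required an intensity above 19.4, the 40th percentile over all probe sets and arrays, on no fewer than 2 arrays, and 13545 genes and 80 of the 83 members passed. Cox8b, Cox7b2 and Ndufb4 did not pass, with highest intensities of 22.5, 18.1 and 16.9. Cox7a1 passed through the OFT mutant and OFT control arrays alone, and Ndufa4l2 through these and the UM mutant array. There was 1 array per genotype and origin, so the limma fit took a gene's own error from how the mutant-minus-control difference varied over the 4 origins. It drew that error toward a spread shared over all genes, weighted as 9.06 degrees of freedom beside the gene's own 3. The moderated SE is therefore not the gene's own spread alone, and the p-values do not rest on replicate embryos. The small number of arrays limits the precision. The Gapdh control probe sets for the 3′ and 5′ ends, whose ratio measures how complete the labelled RNA was, gave a ratio of 4.91 on the mutant and 2.82 on the control p75-sorted array, against 0.7 to 0.986 on the other 6 arrays. For Actb such a ratio did not set these arrays apart, at 1.65 on the mutant and 1.57 on the control p75-sorted array, against 1.42 to 1.94 on the others. The sort markers Ngfr, the gene of p75, and Sox10, a neural crest factor, had 1040 to 1420 and 1510 to 1620 on the p75-sorted arrays, against at most 149 and 57.5 on the others.

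Between OFT and the mean of LM and UM, the muscle isoforms of complex IV were higher while most of the chain stayed close to 0. Cox6a2 was higher by 2.99 and Cox7a1 by 1.32 on the log2(intensity + 32) scale, Cox6b2 and the ATP synthase gene Atp5md fell, and 76 members were not called. Called means a Benjamini-Hochberg adjusted p under 0.05 over all 13545 genes in the limma fit. By that rule 2 members were higher, where 11.3% of all genes were called higher, and 2 lower, where 3.88% were called lower. The median difference was -0.03 over the 80 members and 0.01 over all genes. Within 0.3 of 0 lay 70 members, or 87.5%, against 62.1% of all genes. The members were brighter, with median log2 values by array of 10.5 to 10.8 against 7.3 to 7.6 over all genes tested, and these shares were not matched for brightness.

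Cox6a2 had an intensity of 424 on the OFT mutant and 303 on the OFT control array, against 20.7 and 27.0 on the LM mutant and control arrays and 21.1 and 3.57 on the UM mutant and control arrays. Both OFT arrays stood far above the other 4, several of which lay near the filter. The log2 difference was 2.99 ± 0.18 (moderated SE, n = 2 OFT against 4 LM and UM arrays), with a limma adjusted p of 2.9e-07. A second probe set of Cox6a2 differed by 1.32, in the same direction. Cox7a1 had 83.5 on the OFT mutant and 61.9 on the OFT control array, against 14.2 and 2.29 in LM and 15.6 and 8.65 in UM, mutant first. The 4 LM and UM values of Cox7a1 lay below the filter intensity. Its difference was 1.32 ± 0.16, with a limma adjusted p of 9.7e-05. Since its OFT values alone brought it past the filter, its count as called adds nothing to its values. The sizes of both differences depend on the number added before the log. They were 4.51 for Cox6a2 and 2.95 for Cox7a1 with 1 in place of 32, and 1.74 and 0.54 with a number 4 times as large. Cox6a2 stayed called with either number, and so did Cox7a1, whose call again adds nothing to its values. Cox8b, which was not tested, had 9.74 on the OFT mutant and 22.5 on the OFT control array, against 1.89 to 9.51 in LM and UM. Only the OFT control value of Cox8b lay above the filter intensity, and its OFT mutant value was close to the highest value in LM and UM.

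The broadly used paralogs did not follow. Cox6a1 had 6333 on the OFT mutant and 6175 on the OFT control array, against 5773 to 8174 in LM and UM, a difference of -0.08 ± 0.17 (limma adjusted p 0.79). Cox7a2 differed by -0.17 ± 0.17 and Cox8a by 0.04 ± 0.16, and neither was called. The OFT values of Cox6a1, Cox7a2 and Cox8a lay inside the range of the LM and UM values. Cox4i1 and Cox6b1, the broadly used forms of their subunits, both differed by -0.03. Cox4i2, the isoform known from lung and low oxygen, had 19.2 to 27.5 in OFT and 11.8 to 30.6 in LM and UM, dim on every array and overlapping between the groups. Ndufa4l2, a paralog of the complex IV protein Ndufa4, had 37.1 on the OFT mutant and 23.8 on the OFT control array, against 2.14 to 29.6 in LM and UM, and differed by 0.61 ± 0.22 (limma adjusted p 0.085).

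**Figure D1:**
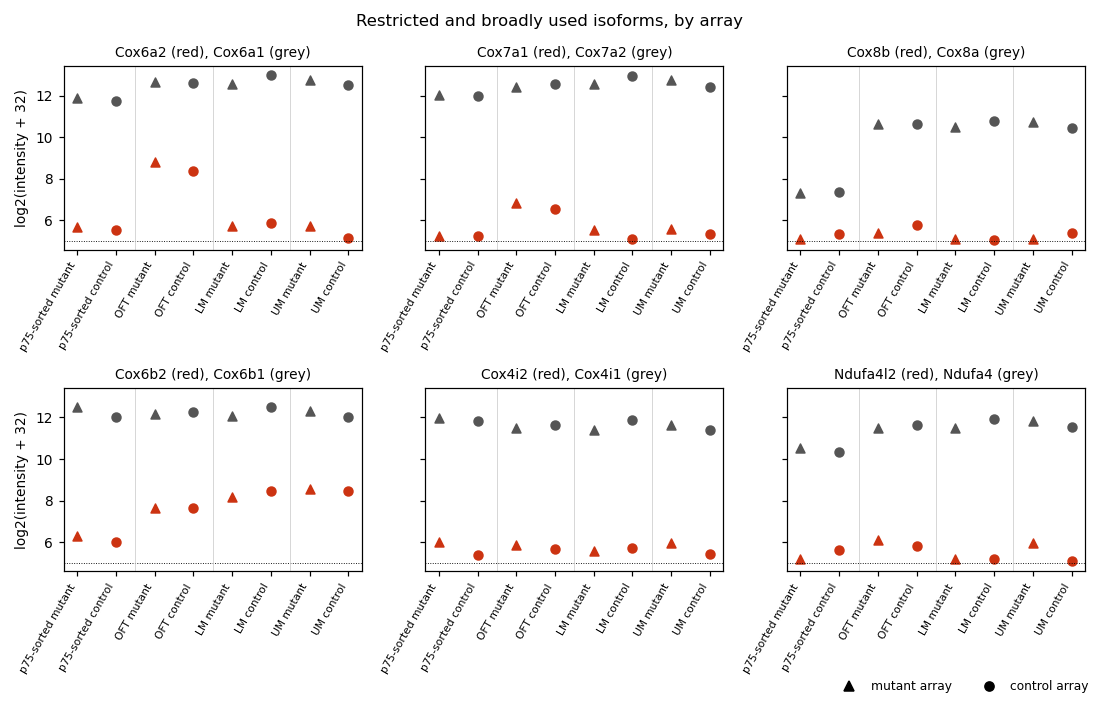
Each panel plots log2(intensity + 32) on the 8 arrays for an isoform of restricted use (red) and a broadly used paralog (grey), with mutant arrays as triangles and control arrays as circles. The dotted line is the value of an intensity of 0. Single arrays are shown without error bars, and the height of a red point against a grey point carries no meaning, since different probe sets do not share a scale. Cox6a2 and Cox7a1 stand higher in OFT than elsewhere, and Cox6b2 and Cox8a lowest on the p75-sorted arrays.

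Cox6b2 had 169 and 170 on the OFT mutant and control arrays, against 258 to 348 in LM and UM, a difference of -0.77 ± 0.16 (limma adjusted p 0.0068). Atp5md, a small subunit of the ATP synthase membrane part known to take part in its dimers, had 998 and 988 on the OFT mutant and control arrays, against 1212 to 1908 in LM and UM, a difference of -0.62 ± 0.15 (limma adjusted p 0.016). For both genes the OFT arrays lay below the 4 others without overlap. With either OFT array left out, or with 1 added in place of 32 before the log, neither lower call remained. The nearest uncalled subunit was Ndufs4, an accessory subunit of complex I, at -0.51 (limma adjusted p 0.054). Both OFT arrays lay above all 4 LM and UM arrays for 8 members, where 23.0% of all genes did so, and below them for 12, where 17.0% did.

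The catalytic subunits showed the same small differences between OFT and the mean of LM and UM. Ndufv1, which binds NADH in complex I, differed by 0.35 ± 0.16 (limma adjusted p 0.17), and Ndufs1, which carries iron-sulfur clusters, by 0.03. The complex II genes Sdha, Sdhb, Sdhc and Sdhd differed by 0.01, 0.01, -0.07 and -0.06. Cyc1, the cytochrome c1 of complex III, differed by 0.20, and Uqcrfs1, the Rieske protein, by -0.07. Atp5a1 and Atp5b, the α and β subunits of the F1 head of complex V, differed by -0.03 and -0.16. The medians by complex were -0.01 for complex I, -0.03 for II, 0.02 for III, -0.03 for IV and -0.07 for V.

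Other genes of energy metabolism, in lists chosen with earlier results known, gave these counts in OFT against LM and UM. Of 17 fatty acid oxidation genes 5 were higher and 0 lower, among them Fabp3, a fatty acid binding protein of heart, at 2.22 and Cd36, a fatty acid transporter, at 1.06. Of 15 glycolysis genes 8 were higher and 0 lower, with a median of 0.52, led by the phosphofructokinase Pfkp at 2.16 and the hexokinase Hk1 at 1.05. Of 22 genes of mitochondrial transcription and biogenesis 3 were higher and 1 lower. Ppargc1a, a coactivator of mitochondrial genes, rose by 1.68, with 172 on the OFT mutant and 103 on the OFT control array, against 10.5 to 28.4 in LM and UM. Esrrg, a nuclear receptor that works with it, rose by 1.70, while Nrf1, whose letters were searched above, fell by 0.65. None of 17 tricarboxylic acid cycle genes, 13 genes of cytochrome c or ubiquinone synthesis or 11 mitochondrial carriers was called. Of 46 assembly factors of the complexes 0 were higher and 2 lower, of 76 mitochondrial ribosome genes 0 and 1, and of 48 cytosolic ribosome genes 0 and 1.

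Cardiac muscle markers moved with the muscle isoforms: 19 of 20 were higher in OFT, and their summed intensity was 30400 to 36000 there, against 1020 to 1430 in LM and 211 to 324 in UM. Of 8 smooth muscle markers tested 7 were higher in OFT, and of 12 skeletal muscle markers 2 were higher, Acta1 at 2.76 and Tnnt1 at 0.98, and 1 lower. Other lists moved too, with 8 of 13 neuron and 7 of 10 endothelium markers higher and 4 of 9 erythroid markers lower. The part of these cells in the values of Cox6a2 and Cox7a1 was not tested, and in such bulk samples fewer cells of a type and less RNA per cell cannot be told apart.

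Set against the mean of the 3 other origins, the p75-sorted cells differed in both directions, gene by gene. Of the 80 members 10 were higher and 31 lower, where 28.3% of all genes were called higher and 19.0% lower, and 39 were not called. On the log2 scale used for all comparisons, Cox7a2l, a protein that joins complexes III and IV, differed by 1.45. Cox8a differed by -3.27, Uqcr10 by -2.80 and Atp5l by -2.69 on that scale. The median was -0.12 over the members and 0.07 over all genes. The largest falls were those of small subunits of complexes III, IV and V, and the rises included the NADH-binding subunit Ndufv1. These 2 arrays were sorted and pooled and had the higher Gapdh ratios given above, while their Actb ratios were not apart. Sorting, pooling, origin and whatever lies behind the Gapdh ratios cannot be told apart.

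Cox8a, a small subunit of complex IV, had 127 on the p75-sorted mutant and 133 on the p75-sorted control array, against 1340 to 1726 on the other 6. Its log2 difference was -3.27 ± 0.16 (moderated SE, n = 2 against 6 arrays; limma adjusted p 6.3e-08), and a second probe set differed by -2.36. Uqcr10, a small subunit of complex III, had 139 and 145 on the p75-sorted mutant and control arrays, against 1008 to 1415, a difference of -2.80. Atp5l, the g subunit of the ATP synthase membrane part, had 221 and 247, against 1606 to 1792, a difference of -2.69. In each of these genes the p75-sorted arrays lay far below every other array. Ndufs5 and Ndufa7, accessory subunits of complex I, differed by -2.13 and -1.72, Cox6b2 by -2.00, and Atp5mpl and Atp5g2, both of the ATP synthase membrane part, by -1.91 and -1.74. Ndufa4, Cox6a1 and Cox7a2 fell by 1.22, 0.88 and 0.60. Cox6a2 and Cox7a1 are among the 31 lower calls through the OFT arrays in the mean. Against LM and UM alone they differed by -0.01 and -0.13 (limma adjusted p 0.96 and 0.51).

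Cox7a2l had 2861 on the p75-sorted mutant and 2403 on the p75-sorted control array, against 860 to 1021 on the other 6, a difference of 1.45 ± 0.14 (limma adjusted p 1.3e-05). Ndufv1 had 1740 and 1897 on the p75-sorted mutant and control arrays, against 835 to 1316, a difference of 0.84 ± 0.15. The accessory complex I subunits Ndufa13 and Ndufa1 rose by 0.86 and 0.84, Ndufb9 by 0.60 and Ndufb7 by 0.54. Atp5d, the δ subunit of F1, rose by 0.59 and Cox5b, a subunit of complex IV, by 0.55. Cyc1 rose by 0.51 and Sdha, the flavoprotein of complex II, by 0.42, while Sdhc and Sdhd, its membrane anchors, fell by 0.77 and 0.43. Several of these smaller calls ended under other settings: with 1 added before the log the limma adjusted p was 0.086 for Sdha, 0.068 for Sdhd, 0.15 for Cox5b, 0.12 for Ndufb7, 0.051 for Atp5d and 0.054 for Cox7a2, and Cyc1 and Ndufb9 were not called without either p75-sorted array. With the mean of their probe sets Sdha differed by 0.13, Cox5b by 0.25, Ndufb7 by 0.04 and Ndufb9 by -0.27, none of them called. Uqcrfs1, Ndufs1, Atp5a1, Atp5b, Sdhb, Cox4i1 and Cox6b1 were not called, with differences of -0.29 to 0.35. Without the p75-sorted mutant array 3 members were called higher and 21 lower, and without the p75-sorted control array 6 and 24. Both p75-sorted arrays lay above all 6 others for 10 members, where 28.0% of all genes did so, and below them for 34, where 18.6% did.

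Counted by complex, 5 of 33 complex I genes were higher and 9 lower, 1 and 2 of 4 in complex II, 1 and 4 of 9 in complex III, 2 and 8 of 17 in complex IV, and 1 and 8 of 17 in complex V. In complexes I, III, IV and V the higher calls ranged from 5.88% in complex V to 15.2% in complex I, below the 28.3% of all genes, and the lower calls from 27.3% in complex I to 47.1% in complexes IV and V, above the 19.0% of all genes. The 8 lower calls of complex IV include Cox6a2 and Cox7a1, which were called through the OFT arrays in the mean. The membrane part and stalk of complex V had 0 higher and 7 lower of 12 genes, with a median of -0.77. Its F1 head had 1 and 1 of 5. Lists of other mitochondrial genes also held more lower than higher calls: 35 lower and 11 higher of 76 mitochondrial ribosome genes, 19 and 7 of 46 assembly factors, and 10 and 2 of 22 biogenesis genes. Cytosolic ribosome genes had 21 lower and 3 higher of 48. Tricarboxylic acid cycle and fatty acid oxidation genes had 4 lower and 4 higher of 17 each, and glycolysis genes 2 lower and 6 higher of 15. With each array scaled to a common median, the median of all genes was 0.17 in place of 0.07, and 20 members were called higher and 27 lower, where 35.0% of all genes were called higher and 15.2% lower. The members' median was then 0.01, still below that of all genes.

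**Figure D2:**
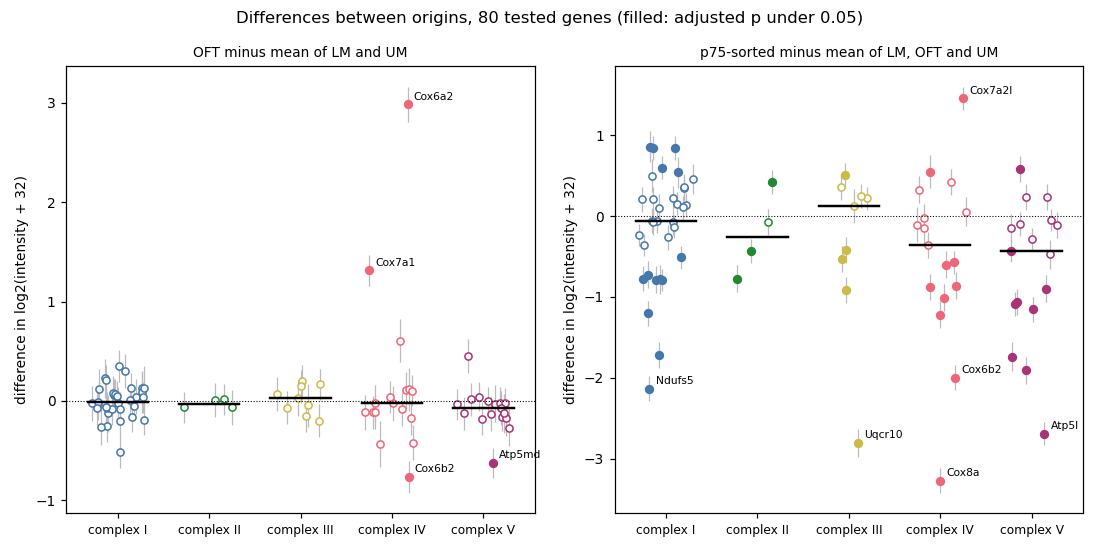
Each point is a tested subunit gene, placed by complex, with its difference in log2(intensity + 32) and its moderated SE; filled points have an adjusted p under 0.05 and bars mark medians. In the left panel nearly all genes lie near 0 and Cox6a2 stands at 2.99 and Cox7a1 at 1.32, while in the right panel genes of every complex lie on both sides, from -3.27 for Cox8a to 1.45 for Cox7a2l.

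Probe sets of the same gene often gave different values on the p75-sorted arrays. Of 48 members with several probe sets past the filter, 22 had probe sets on both sides of 0, and 19 had probe sets more than 1 apart on the log2 scale. The median range within a gene was 0.84 and the largest 2.04. In OFT against LM and UM, the same 48 members had a median range of 0.18, and 1 exceeded 1. Ndufb9 differed by 0.60 with the probe set used and by -1.32 with another, Ndufc2 by 0.22 and -1.71, and Atp5h by 0.23 and -1.39. Cox5b had values of -0.42 to 0.55 in its 5 probe sets past the filter. Cox8a and Ndufa7 were below 0 in every probe set past the filter, and Cox7a2l above 0, although another of its probe sets gave only 0.12. Among the probe sets used, 34 of the plain type had 2 higher and 18 lower calls with a median of -0.43, and 46 of the a, s or x types, which can match several transcripts, had 8 and 13 with a median of 0.12. Over all genes these medians were 0.05 and 0.12. The probe sets' distance from the 3′ end of the transcript was not analysed here, and the part of the Gapdh ratio given above was not tested. Neuron markers were higher on these arrays too, 12 of 13, with a summed intensity of 6210 to 9830 against 1010 to 6120 on the others. Of the other marker lists, 9 of 12 skeletal muscle markers were higher. Lower were 9 of 10 surface epithelium, 8 of 10 endothelium, 8 of 11 macrophage and leukocyte and 14 of 20 cardiac muscle markers. For cardiac muscle the mean includes the OFT arrays, where these markers summed to 30400 to 36000. Their sum was 2580 to 3530 on the p75-sorted arrays, above 1020 to 1430 in LM and 211 to 324 in UM. The part of these cells was not tested.

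**Figure D3:**
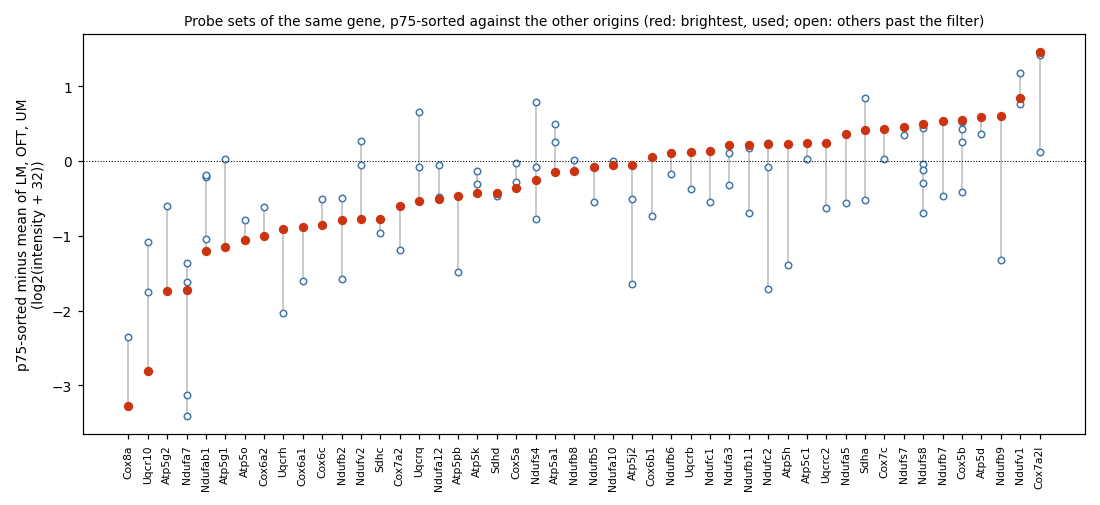
The 48 members with several probe sets past the filter are ordered by the difference of the brightest, which was used (red); open points are the other probe sets of the same gene, and a grey line spans them. The vertical axis is the p75-sorted difference from the other 3 origins in log2(intensity + 32), without error bars. The lines are long and 22 of them cross 0.

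No member was called between LM and UM, where 1.56% of all genes were called in either direction. The median difference was 0.07 over members and -0.005 over all genes. Within 0.3 of 0 lay 76 of the 80 members, or 95.0%, against 82.0% of all genes, again not matched for brightness. At an unadjusted p under 0.05 there were 2 members and 1148 genes in all. The smallest unadjusted p belonged to Atp5md, with 1800 and 1908 on the LM mutant and control arrays, against 1212 and 1377 on the UM mutant and control arrays, a difference of 0.51 ± 0.18 (limma adjusted p 0.308). The LM and UM arrays of Atp5md did not overlap, but how many of all genes separated in this way was not counted. Ndufab1, the acyl carrier protein bound to complex I, followed at 0.41, Cox6a2 at 0.36 and Ndufa4l2 at -0.34.

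Mutants and controls were not told apart by any subunit gene across the 4 origins: 0 members and 0.0% of all genes were called by limma, and at an unadjusted p under 0.05 there were 1 member and 410 genes. The median mutant-minus-control difference was -0.0055 over the members. Ndufb1, an accessory subunit of complex I, had the smallest p, at -0.56 ± 0.15 (moderated SE, n = 4 pairs). Its intensities were 16.3 on the mutant and 68.8 on the control array in p75-sorted cells, 75.8 and 87.1 in OFT, 70.2 and 115 in LM, and 72.9 and 116 in UM. Every mutant array of Ndufb1 was lower than its control array, most so in p75-sorted cells, and its adjusted p was 0.9997. Ndufa12, Ndufb10, Ndufs1 and Uqcrc2 were also lower on all 4 mutant arrays and Cox7a1 was higher on all 4, and over all genes 709 were lower and 533 higher in this way. Cox4i2 differed by 0.31, Ndufa12 by -0.25 and Cox7a1 by 0.24.

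Within single origins the members moved together in LM and in UM, in opposite directions. The LM mutant array was below the LM control array for 73 of 80 members, where 55.0% of all genes lay below, with a median of -0.28. The UM mutant array was above the UM control array for 63 of 80, where 56.7% of all genes lay above, with a median of 0.18. For 62 members, or 77.5%, both held, against 37.7% of all genes. In p75-sorted cells the mutant array was above the control array for 45 members, where 47.7% of all genes lay above, and in OFT for 36, where 42.9% did, with medians of 0.04 and -0.03. Each of these is a difference between 2 arrays with no replicate check, and the difference between LM and UM was not tested.

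Every complex showed this in its median, from -0.31 in complex IV to -0.14 in complex II in LM, and from 0.13 in complex III to 0.29 in complex IV in UM. After quantile normalization the LM medians ran from -0.26 in complex I to -0.11 in complex V, with -0.13 in complex IV, and the UM medians from 0.09 in complex III to 0.23 in complex II, so the order of the complexes did not hold. The largest differences below 0 in LM were those of Ndufs8 and Ndufs7, which carry iron-sulfur clusters of complex I. Ndufs8 had 946 on the mutant and 1523 on the control array in LM, a difference of -0.67, against 0.57 in UM. Ndufs7 differed by -0.66 in LM and 0.33 in UM, and Cox5b by -0.61 in LM and 0.47 in UM. There were 6 members that went the other way, higher on the LM mutant and lower on the UM mutant array: Atp5pb, Atp5h, Cox5a, Cox7c, Ndufb6 and Sdhc. Atp5pb, the b subunit of the ATP synthase stalk, differed by 0.39 in LM and -0.43 in UM. The largest rises in UM were those of dim genes, Ndufa4l2 with 29.6 on the mutant and 2.14 on the control array and Cox8c with 123 and 57.4.

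**Figure D4:**
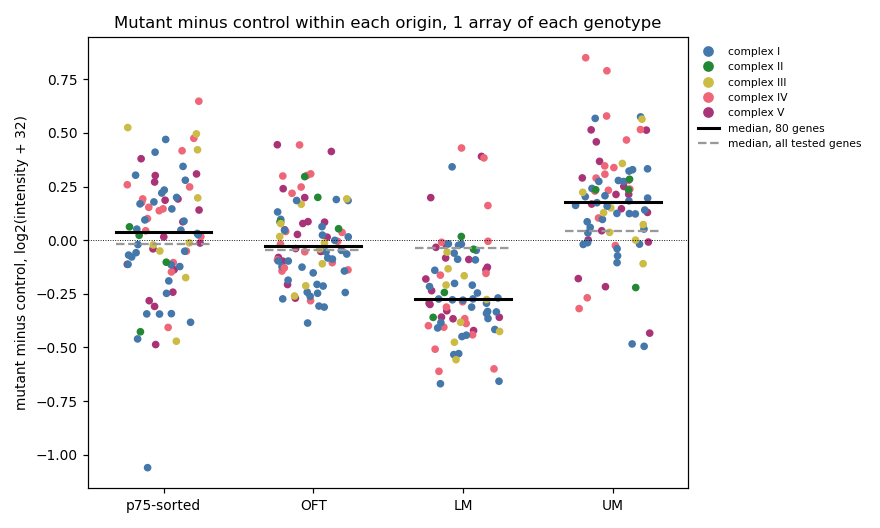
Each point is the mutant-minus-control difference of a subunit gene in log2(intensity + 32) within an origin, coloured by complex, from 1 array of each genotype and so without error bars. Black bars are medians of the 80 genes and dashed bars those of all tested genes. The members lie mostly below 0 in LM, with a median of -0.28, and mostly above 0 in UM, with a median of 0.18.

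Ribosomal genes moved the same way. Mitochondrial ribosome genes were lower on the LM mutant array for 62 of 76 and higher on the UM mutant array for 61, with medians of -0.22 and 0.14, and cytosolic ribosome genes for 42 of 48 and 42, with medians of -0.51 and 0.39. Quantile normalization brought the cytosolic ribosome medians to 0.002 in LM and -0.02 in UM. The respiratory chain medians were then -0.19 and 0.15, and the mitochondrial ribosome medians -0.21 and 0.16. After quantile normalization 67 members were lower on the LM mutant array and 60 higher on the UM mutant array. With each array scaled to a common median these counts were 72 and 53, and the members' medians -0.26 in LM and 0.07 in UM, beside -0.03 and -0.04 over all genes. Neuron markers ran the other way in LM and UM, 12 of 13 higher on the LM mutant and 12 of 13 lower on the UM mutant array. Their summed intensity was 1520 on the mutant and 1010 on the control array in LM, and 1740 and 2680 in UM. On the mutant arrays of the other origins 12 of 13 were lower in p75-sorted cells and 13 of 13 in OFT. The neuron medians there were -0.65 and -0.77, where the respiratory chain medians were 0.04 and -0.03. Erythroid markers summed to 30000 on the mutant and 46300 on the control array in LM, and 38300 and 28000 in UM. The part of these cells in the members' differences was not tested.

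**Figure D5:**
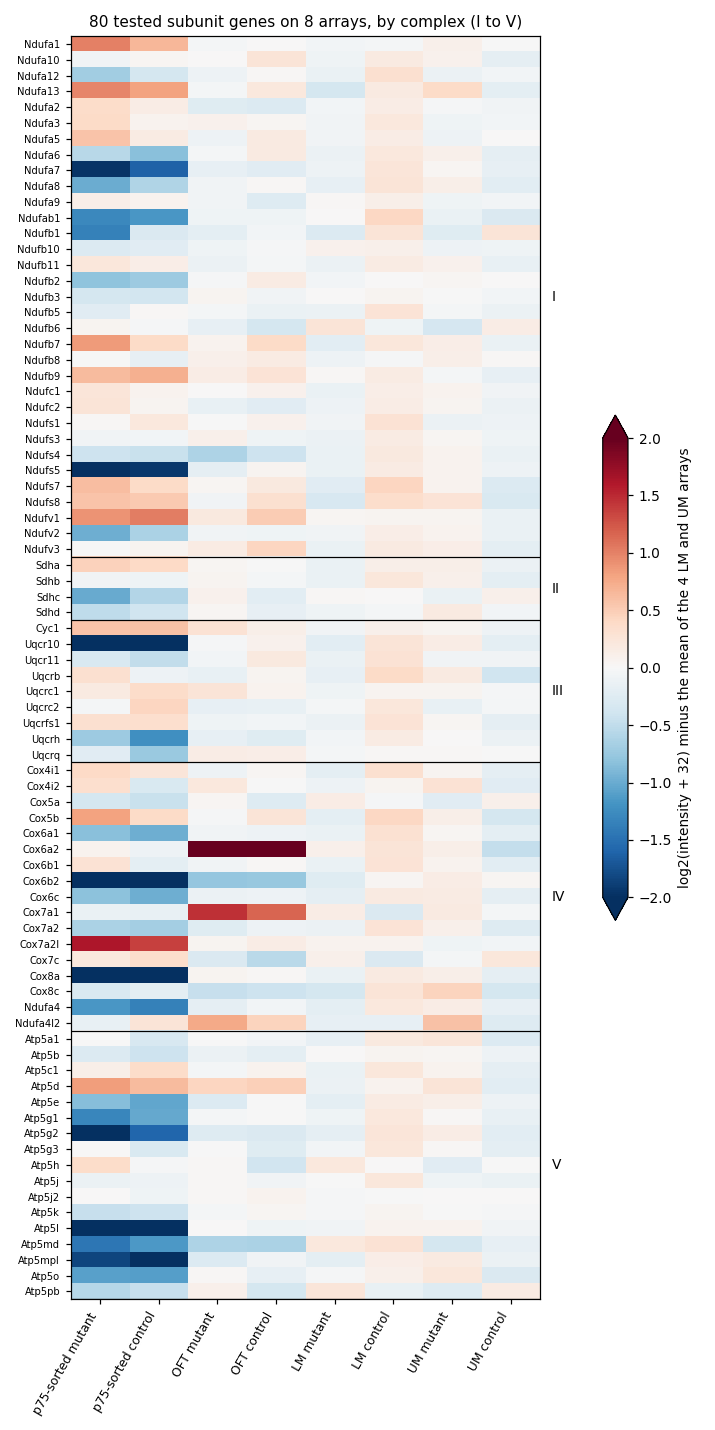
Rows are the 80 tested genes by complex, columns the 8 arrays, and colour is log2(intensity + 32) minus the mean of the gene's 4 LM and UM values, with colours ending at 2 in either direction. The p75-sorted columns are strongly coloured both ways, the OFT columns are pale apart from Cox6a2 and Cox7a1, and in LM the control column is redder than the mutant column for most genes.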

How the data were processed

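RNA of 8 samples was measured on Affymetrix arrays. The deposited intensity values are linear, 1 for each of 45101 probe sets. In the deposited table the mean between the 2nd and 98th percentiles is about 150 on every array, and no source used here names the software. Of the probe sets, 34945 were annotated with 1 gene, 932 with several and 9211 with none here. A probe set naming several genes was not used, which left out some subunit genes.

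Values were transformed as log2(intensity + 32) without further normalization, since array medians lay within 0.2, and fitted with limma 3.58.1 in R 4.3.3 on terms for origin, which pairs mutant with control, and genotype (3 residual degrees of freedom), with Benjamini-Hochberg adjustment over 13545 genes. The script was tested on simulated data. No list was tested; counts and medians describe lists. Members, lists and roles were chosen with earlier results of these data known. Named for each contrast were up to 8 called members a direction with the largest fold, or the 4 with the smallest p where fewer than 4 passed; isoform, complex II and catalytic genes always; the 3 largest changes of related lists; and the 3 largest rises and falls within an origin. Ndufs4, Ndufc2, Atp5h, Ndufb10 and Uqcrc2, and the other genes named outside this rule, were chosen after their values were seen. Alternatives were other pseudocounts, filters, scalings and probe set rules, a variance trend, no origin term and leaving out arrays. The planned protein sequences were not used here.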

Additional observations from a re-analysis of the deposited data

Results flagged for a closer look

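Uqcrq, a small subunit of complex III, had a mutant-minus-control log2 difference of 0.53 in p75-sorted cells, with 636 on the mutant and 432 on the control array, far from 0.02 in OFT, -0.06 in LM and 0.04 in UM. The pairs of 26 genes and medians were looked at in this way. Chance marks about 1 in 20 of such groups of 4 if they are picked without regard to their values. Uqcrq and most of the other genes were picked for a large rise or fall within an origin, so this rate does not hold for them. How often chance would mark a gene picked in that way was not tested.

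The mutant-minus-control difference went opposite ways in LM and UM for the members' median, and LM minus UM of that difference was -0.45. It was -0.42 for complex I, -0.38 for complex II, -0.41 for complex III, -0.60 for complex IV and -0.35 for complex V. The differences were not tested, since each origin has 1 array per genotype.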

How the results depend on the processing

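Across the alternatives the count of members called was 0 in both directions between mutants and controls, also without the origin term, and between LM and UM. The 2 higher calls in OFT became 3 under quantile normalization, median scaling or without the UM mutant array. The 2 lower calls in OFT became 0 with a pseudocount of 1, and 0 to 4 when single arrays were left out (0 without either OFT array, 4 without the LM mutant or the UM control array). For p75-sorted cells the 10 higher calls became 6 with a pseudocount of 1, 20 with median scaling, and 3 to 14 when single arrays were left out (3 without the p75-sorted mutant, 6 without its control, 7 without the OFT mutant array and 14 without the LM control array). The 31 lower calls became 24 with a pseudocount of 1 and 21 to 31 when single arrays were left out. With the dimmest probe set past the filter, added after the data were seen, 8 were higher and 36 lower. Of 670 values of named genes under an alternative, 607 kept their direction and side of the threshold, 55 lost the call and 8 changed direction. These were Ndufb9 in p75-sorted cells at -0.27 with the mean of its probe sets and -1.32 with the dimmest, Cox5b at -0.42 without x or s type probe sets, Ndufb7 at -0.46 and Sdha at -0.52 with the dimmest, and between LM and UM Ndufab1 at -0.024 with the mean and -0.43 without x or s types, and Ndufa4l2 at 0.11 without the UM mutant array, within a range of -0.78 to 0.11 over single arrays left out; the cause was not tested. Of 72 uncalled named values 55 changed sign under some alternative and 6 passed the threshold under some alternative. No paired analysis beyond the origin term was possible because each group holds 1 array. Dim genes such as Cox7a1, Cox4i2 and Ndufa4l2 lie near the filter intensity, where differences are least certain.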
